A study of Danio rerio with 12 samples.

Results

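The comparison described here set the caudal fin regenerate at 4 days post-amputation (dpa) against the uninjured fin at 0 dpa, across every gene of the mRNA table. It took in all 16951 genes, out of 17099 features of the series when the small RNA table is included, and 6 of the 12 libraries. Adult Ekkwill zebrafish had part of the caudal fin cut away under anaesthesia. The regrowing tissue at 4 dpa gave 3 polyA-selected, strand-specific mRNA libraries, and the fin tissue taken at 0 dpa gave another 3. All fish were of the Ekkwill line, with no transgene or drug named for either group, and their age was given only as adult. Each library held the RNA of 5 to 8 fins, so the spread between libraries is a spread between pools, and the hour of the day at which tissue was collected is not given in the sources used here. Depth was similar in the groups, at 24557820, 17928712 and 23853467 gene reads for the 4 dpa libraries, against 20839447, 25223147 and 23069544 for the 0 dpa libraries. One fin library, 0 dpa replicate 1, stood apart in macrophage genes and was the lowest of its group in most cholesterol genes, and 10169 genes were called without it, against 10532 with all 6 libraries. Leaving out 4 dpa replicate 1 gave the fewest calls, 9100.

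A zebrafish caudal fin is a fold of skin stretched over bony rays, with nerves, vessels, pigment cells and connective tissue within the rays, and it holds almost no skeletal muscle. After amputation, epidermis covers the stump, and cells beneath it lose parts of their mature character, divide and gather into a blastema. By 4 dpa the blastema is established and regrowth of the rays has begun, so that dividing cells, bone-forming cells laying down matrix and a thickened wound epidermis stand where mature skin and bone stood before. Because the libraries came from mixed tissue, fewer cells of a type and less RNA per cell cannot be told apart in any of the values that follow.

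Levels are given as CPM, a read count relative to the size of its library after the authors' adjustment of library size. Differences are log2 fold changes, 4 dpa over 0 dpa, on a log2(CPM + 1) scale, each with its standard error (SE), and a gene was called when the adjusted p of the limma test was under 0.05. Named genes were taken by a fixed rule in each list (the largest changes and the gene with most reads), and others are marked as chosen after their values were seen. Under this test 62.1% of the genes were called, 31% higher at 4 dpa and 31.2% lower, and these shares are the background for every list below. The median log2 fold change of all genes was -0.00, and 5% of genes lay below -1.40 and 5% above 1.52.

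The change was spread over all levels of expression but was not symmetric in size. Of the genes ranked in 4 equal bins by mean level, 58.1% were called in the lowest bin and 68.6% in the highest. Called genes that differed at least 4-fold numbered 461 higher and 239 lower at 4 dpa, those that differed at least 8-fold numbered 135 and 47, and those that differed at least 32-fold numbered 18 and 6. Of the 3287 genes without a name, 789 were higher and 1133 lower. Of all genes, 11551 (68.1%) had 4 dpa and 0 dpa libraries that did not overlap. Most genes named below were picked for large changes, so a lack of overlap in them is no separate support. When levels were instead scaled to the total reads of each library, the median of all genes moved to 0.24 and the called genes split into 7518 higher and 3595 lower, against 5251 and 5281 with the scaling used here. Changes below are therefore changes relative to the bulk of genes, and lists whose median turned its sign under another scaling are named where they are described.

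The regenerate spread its reads over more genes. At 4 dpa, 50% of the reads came from 355, 327 and 345 genes, whereas at 0 dpa 50% came from 181, 172 and 181 genes. The 10 genes with most reads took 10.9% ± 0.388 of the reads at 4 dpa and 17.1% ± 0.0679 at 0 dpa (SD, n = 3 each), and the groups did not overlap. Keratins of the skin led at both times: krt5 took 2.57% ± 0.330 of reads at 4 dpa and 3.31% ± 0.291 at 0 dpa, and krt91 took 1.21% ± 0.118 and 3.41% ± 0.0738. Among the 10 leading genes at 4 dpa that were not among them at 0 dpa were col1a1a, a chain of type I collagen of bone and dermis, with 1.17% ± 0.215 of reads against 0.0558% ± 0.000885, and krt94, with 1.095% ± 0.151 against 0.282% ± 0.0698. COL10A1, a collagen made by fin osteoblasts, completed these 3 with 0.679% ± 0.0308 against 0.0171% ± 0.00290. The other 7 leading genes at 4 dpa also led at 0 dpa, and each of the 7 was called lower at 4 dpa. Under quantile normalization, which forces the libraries onto the same distribution, the calls were lost for krt5, whose direction also turned, and for eef1a1l1, MT-CO1 and ENSDARG00000080337 (adjusted p = 0.315, 0.669, 0.0928 and 0.852 by limma).

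**Figure D1:**
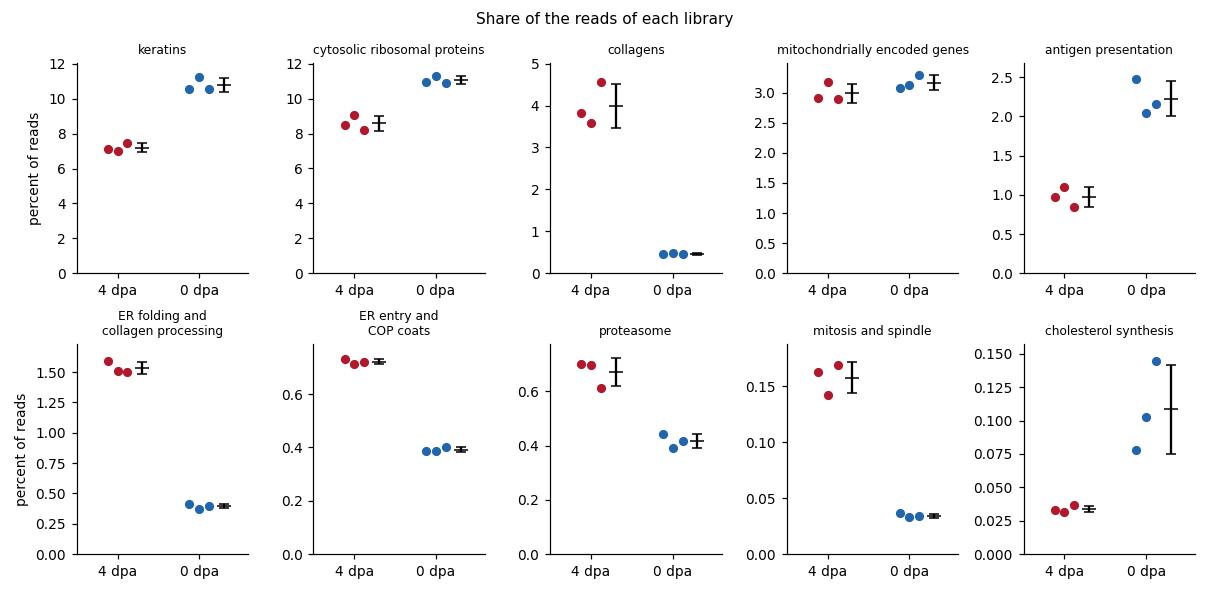
Percent of the reads of each library (vertical axes, each starting at 0) taken by 10 gene lists, with 1 point per library, 4 dpa in red and 0 dpa in blue, and the mean with its SD as a black cross and bar (n = 3 each). Collagens and the endoplasmic reticulum (ER) lists took more of the reads at 4 dpa, keratins, ribosomal proteins and antigen presentation took less, and mitochondrially encoded genes overlapped between the groups.

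Genes of cell division were higher at 4 dpa, with no member called lower in any of 3 lists. All 47 mitosis and spindle genes were called higher at 4 dpa, with a median log2 fold change of 1.72, and together they took 0.158% ± 0.0141 of the reads at 4 dpa and 0.0344% ± 0.00180 at 0 dpa. Of 41 DNA replication genes 37 were called higher and none lower (median 0.83), and of 27 DNA repair and Fanconi genes 16 were called higher and none lower (median 0.49). The kinase plk1, which drives entry into mitosis, had 51.7, 40.0 and 52.9 CPM at 4 dpa and 7.77, 8.40 and 7.46 CPM at 0 dpa, which gave a difference of 2.48 ± 0.127 (log2, SE). CCNB1, the mitotic cyclin, changed by 2.40 ± 0.114. In both genes every regenerate library was several-fold above every fin library. RRM2, a subunit of the enzyme that makes deoxynucleotides, had 55.3, 43.0 and 61.4 CPM at 4 dpa and 24.5, 19.5 and 16.2 CPM at 0 dpa. PCNA, the sliding clamp of DNA polymerase, had 307, 314 and 292 CPM at 4 dpa and 174, 174 and 200 CPM at 0 dpa, so that the replication genes rose less steeply than the mitotic genes in these examples. FANCI and FANCD2, partners in repair of DNA crosslinks, rose by 1.03 ± 0.117 and 0.64 ± 0.108, whereas the call for PARP1, a sensor of DNA breaks, was lost when 4 dpa replicate 1, 4 dpa replicate 3 or 0 dpa replicate 2 was left out (adjusted p up to 0.0614, limma).

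Of the cytoskeleton, tubulins and kinesins were mostly higher. Of 14 tubulins 10 were called higher and 1 lower (median 0.93), and of 26 kinesins, the motors that walk on microtubules, 18 were called higher and 1 lower (median 1.02). A beta tubulin, tubb5, had 195, 152 and 205 CPM at 4 dpa and 4.97, 6.12 and 8.63 CPM at 0 dpa, the steepest rise of the list, with no overlap between the groups. The alpha tubulin tuba1b rose by 2.88 ± 0.130, while tuba8l2 fell by 0.74 on the log2 scale (SE 0.0829). Kinesins of the spindle, kif20a and kif11, rose by 2.26 ± 0.137 and 2.13 ± 0.0834, whereas KIF5B, which carries cargo along axons and in other cells, did not pass the test (0.07 ± 0.0829). A list of genes of the cilium and of transport within it, which also took in centrosome genes named cep, held 30 called higher, 4 lower and 21 not called of 55 (median 0.44). Myosins and tropomyosins were mixed, with 14 higher and 11 lower of 39.

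The parts of the gene expression machinery went separate ways. Of 70 cytosolic ribosomal protein genes 67 were called lower at 4 dpa and none higher, with a median log2 fold change of -0.63, and their share of reads was 8.58% ± 0.441 at 4 dpa and 11.05% ± 0.222 at 0 dpa. The list nevertheless depended on scaling: under quantile normalization 31 were called lower and 4 higher. RPL5 had 1107, 1209 and 1113 CPM at 4 dpa and 2239, 2552 and 2365 CPM at 0 dpa. RPS26 (ENSDARG00000030408) and RPS2 fell likewise, by 0.98 and 0.69 on the log2 scale. The nucleolar genes that assemble ribosomes took the other direction, with 32 higher, 4 lower and 18 not called of 54 (median 0.37). The 32 became 23 and 22 without 4 dpa replicates 1 and 3, and 26 and 24 without 0 dpa replicates 1 and 2. The gene with most reads of that list, ncl, did not pass the test. DKC1, which modifies ribosomal RNA, had 180, 149 and 170 CPM at 4 dpa and 58.5, 68.4 and 81.7 CPM at 0 dpa, and the nucleolar chaperone npm1a rose by 1.08 ± 0.118. The helicase DDX21 was the strongest exception, with 76.8, 81.4 and 89.8 CPM at 4 dpa and 266, 252 and 197 CPM at 0 dpa.

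Enzymes that charge transfer RNAs rose, with 16 called higher and 1 lower of 20 (median 0.67), led by EEF1E1, a scaffold of the synthetase complex (1.38 ± 0.119), and CARS1, the cysteine enzyme (1.16 ± 0.109). Translation factors were split, 27 higher and 22 lower of 63. A cap-binding factor, eif4e1c, had 97.1, 87.5 and 97.1 CPM at 4 dpa and 21.5, 30.7 and 47.7 CPM at 0 dpa. A repressor of translation that binds cap-binding factors, eif4ebp3, went the other way, with 2.77, 3.25 and 3.26 CPM at 4 dpa and 25.2, 22.6 and 21.3 CPM at 0 dpa, a difference of -2.53 ± 0.118 (log2, SE). In both the groups lay well apart. Of 58 spliceosome genes 33 rose and 6 fell (median 0.37), among them SF3B4 up by 1.08 ± 0.109 and its partner SF3B1 down by 1.06 on the log2 scale (SE 0.0826).

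Genes of the proteasome, which breaks down proteins, were mostly higher: 34 of 48 subunits and regulators were called higher and 8 lower (median 0.52). The list took 0.671% ± 0.0504 of reads at 4 dpa and 0.418% ± 0.0252 at 0 dpa. PSMB7, a catalytic subunit of the standard proteasome, had 111, 102 and 110.5 CPM at 4 dpa and 9.57, 14.99 and 12.1 CPM at 0 dpa, and PSMD1, of the regulatory cap, rose by 1.43 ± 0.143. The strongest fall belonged to psmb13a, an immunoproteasome-type catalytic subunit, with 89.3, 94.5 and 61.6 CPM at 4 dpa and 162, 139 and 127 CPM at 0 dpa. PSME2, of the interferon-inducible activator, also fell, although that call was lost with scaling to total reads (adjusted p = 0.101, limma). Heat shock proteins were mostly not called (37 of 69), but DNAJB11 and HSP90B1, chaperones of the ER, rose by 1.296 ± 0.134 and 1.21 ± 0.143. The TCP-1 chaperonin, a ring that folds actin and tubulin, had 4 subunits higher and 2 lower of 8.

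**Figure D2:**
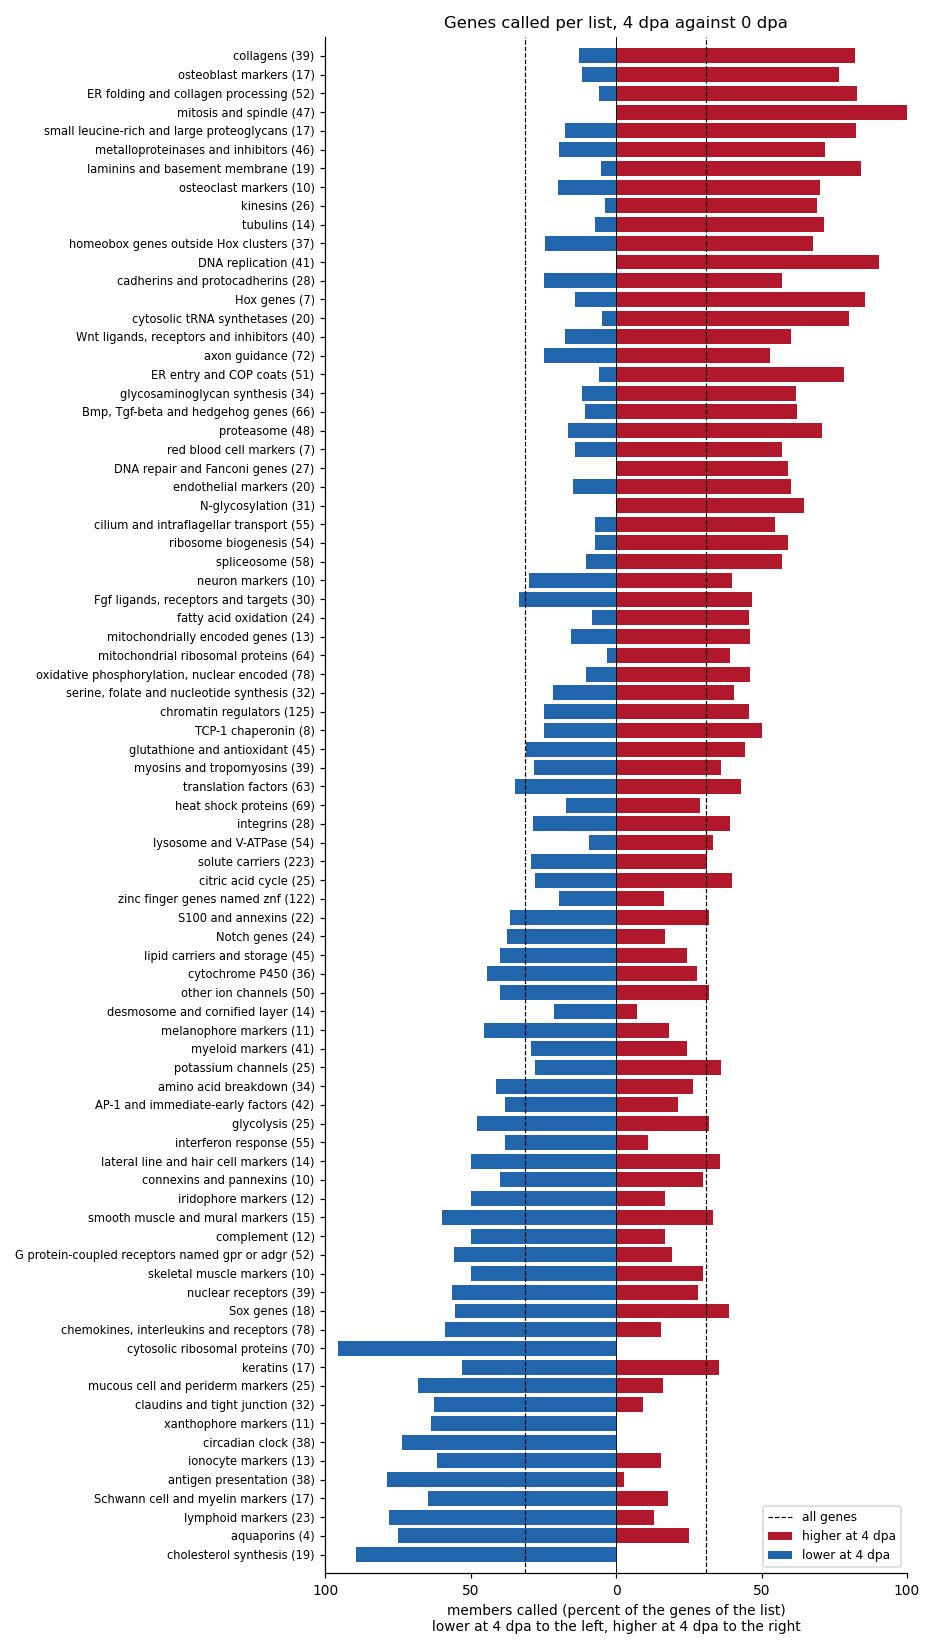
Percent of the genes of each of 81 lists called higher (red, to the right) and lower (blue, to the left) at 4 dpa, ordered by median log2 fold change, with the number of genes in brackets. Dashed lines mark the shares among all genes, 31% higher and 31.2% lower. Collagens, osteoblast markers, ER folding and mitosis stand at the top, and cholesterol synthesis, aquaporins, lymphoid and Schwann cell markers at the bottom.

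The secretory pathway was among the clearest groups to rise. Of 52 genes for folding in the ER and for processing of collagen 43 were called higher and 3 lower, 40 of them at least 2-fold higher, with a median of 1.72. They took 1.53% ± 0.0479 of reads at 4 dpa and 0.396% ± 0.0185 at 0 dpa. PLOD2, which hydroxylates lysines so that collagen can be crosslinked, had 65.2, 54.8 and 55.6 CPM at 4 dpa and 1.32, 2.78 and 2.73 CPM at 0 dpa. PCOLCE2 (ENSDARG00000055575), an enhancer of collagen propeptide removal, had 71.7, 57.3 and 65.3 CPM at 4 dpa and 1.69, 3.29 and 3.22 CPM at 0 dpa. Every regenerate library was far above every fin library in both genes. SPARC, a collagen-binding protein of bone, rose by 1.70 ± 0.0952 and had the most reads of the list. Entry into the ER and the COP coats of transport vesicles followed, with 40 higher and 3 lower of 51 (median 0.60). Their leading genes, SEC31A and SEC24D, build the coat of vesicles that leave the ER, and rose by 1.78 ± 0.126 and 1.77 ± 0.135. N-glycosylation held 20 higher and none lower of 31 (median 0.49), led by UGGT2, which checks glycoprotein folding (2.29 ± 0.118). A glutathione peroxidase of the ER, GPX7, led the antioxidant list, with 76.2, 69.5 and 68.4 CPM at 4 dpa and 2.70, 2.74 and 3.22 CPM at 0 dpa.

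The products of that pathway, the extracellular matrix, rose over most of its families. Of 39 collagens 32 were called higher and 5 lower (median 2.13), and collagen reads made up 3.99% ± 0.518 of the libraries at 4 dpa and 0.470% ± 0.0218 at 0 dpa, an 8.48-fold difference. COL10A1 had 5868, 6562 and 6238 CPM at 4 dpa and 152, 225 and 206 CPM at 0 dpa, and col1a1a had 9834, 9332 and 12907 CPM at 4 dpa and 605, 663 and 628 CPM at 0 dpa. The regenerate libraries stood far above the fin libraries in both. Against this direction, col17a1a, a collagen of hemidesmosomes that anchors skin to its basement membrane, had 66.1, 76.6 and 86.8 CPM at 4 dpa and 407, 333 and 332 CPM at 0 dpa. Laminins and other basement membrane genes held 16 higher and 1 lower of 19 (median 1.22). NID2, which links laminin and collagen networks, had 64.2, 63.5 and 92.0 CPM at 4 dpa and 1.16, 1.16 and 1.17 CPM at 0 dpa, and FREM1, a protein of the basement membrane of growing fins and skin, had 60.5, 55.5 and 54.8 CPM at 4 dpa and 1.06, 0.928 and 0.877 CPM at 0 dpa. These were among the steepest rises of any list. Of 17 proteoglycans 14 rose and 3 fell (median 1.36), with OGN (ENSDARG00000044132), a small leucine-rich proteoglycan of bone, at 357, 391 and 345 CPM at 4 dpa and 11.4, 14.52 and 14.3 CPM at 0 dpa.

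Genes that remodel matrix rose together with those that build it. Of 46 metalloproteinases and their inhibitors 33 were called higher and 9 lower (median 1.27). The collagenase mmp13a had 64.0, 52.6 and 60.9 CPM at 4 dpa and 2.70, 1.90 and 1.02 CPM at 0 dpa, and MMP2, a gelatinase, had 1415, 1508 and 1433 CPM at 4 dpa and 448, 572 and 558 CPM at 0 dpa. Both separated the groups completely. Enzymes of glycosaminoglycan synthesis showed a split between counts of genes and counts of reads: 21 rose and 4 fell of 34 (median 0.60), but the list took 0.0796% ± 0.00643 of reads at 4 dpa and 0.153% ± 0.0357 at 0 dpa. That lower share lay in the gene PAPSS2 (ENSDARG00000071021), since the other 33 genes took 0.0665% ± 0.00489 at 4 dpa and 0.0528% ± 0.00653 at 0 dpa. Chondroitin and hyaluronan synthases rose, CHSY1 by 2.42 ± 0.125 and HAS2 by 1.92 ± 0.180. PAPSS2 (ENSDARG00000071021), which makes the sulfate donor that such enzymes and sulfotransferases use, had 98.7, 122.8 and 139 CPM at 4 dpa and 742, 1282 and 1387 CPM at 0 dpa. The sulfate importer SLC26A2 had 18.0, 29.96 and 34.6 CPM at 4 dpa and 134, 238 and 254 CPM at 0 dpa. In both sulfate genes every regenerate library was below every fin library, and 0 dpa replicate 1 was the lowest of its group.

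Contacts between cells changed by type. Of 28 cadherins and protocadherins 16 rose and 7 fell (median 0.75), led by CDH2, the N-cadherin of mesenchyme and nerve, which had 57.2, 56.2 and 71.8 CPM at 4 dpa and 10.8, 11.8 and 10.4 CPM at 0 dpa. Claudins and other tight junction genes of epithelia went down, with 20 lower and 3 higher of 32 (median -0.67). The skin claudin cldni had 626, 700 and 600 CPM at 4 dpa and 1418, 1828 and 1601 CPM at 0 dpa, and oclnb, an occludin, fell by 1.42 on the log2 scale (SE 0.0862). Exceptions included MARVELD1, which rose by 2.44 ± 0.102. Integrins were split (11 higher, 8 lower, 9 not called of 28), and the small positive median of 0.10 turned negative without 4 dpa replicate 3 and when genes under a mean of 1 CPM were left out. The fibronectin receptor subunit ITGA5 had 124, 104 and 133 CPM at 4 dpa and 16.5, 20.9 and 19.1 CPM at 0 dpa. The hemidesmosome integrin itga6b went the other way, with 497, 503 and 656 CPM at 4 dpa and 735, 1151 and 996 CPM at 0 dpa. Of 14 desmosome and cornified layer genes 10 were not called, and 3 were lower, a number that became 7 without 0 dpa replicate 1. Their median of -0.15 turned to 0.11 with scaling to total reads and to 0.08 under quantile normalization.

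Keratins took 7.20% ± 0.249 of the reads at 4 dpa and 10.8% ± 0.402 at 0 dpa, but individual keratins diverged: 6 rose and 9 fell of 17. Their median was -0.66, and it turned to 0.10 under quantile normalization. The fall of krt91 was large and clear of replicate spread, with 9738, 11952 and 11547 CPM at 4 dpa and 36932, 39511 and 39250 CPM at 0 dpa. Against it, krt18a.1, a keratin of simple epithelia, had 2343, 2027 and 1931 CPM at 4 dpa and 204, 326 and 288 CPM at 0 dpa. A list of markers of mucous cells and of the periderm, the outermost layer of fish skin, held 17 lower and 4 higher of 25 (median -0.67). It was drawn up with genes of the basal layer and of epithelia in general as well, krt18a.1 among them. Its counts are therefore not those of the surface layer alone. The gel-forming mucin muc5.2 had 79.1, 51.8 and 83.6 CPM at 4 dpa and 307, 364 and 300 CPM at 0 dpa. Ionocyte markers, of the skin cells that exchange salts with the water, held 8 lower and 2 higher of 13 (median -0.85), among them the ammonia channel RHCG, which fell by 1.49 on the log2 scale (SE 0.125). Of 4 aquaporins 3 fell and 1 rose. The glycerol and water channel AQP3 (ENSDARG00000003808) had 1000.6, 1186 and 822 CPM at 4 dpa and 2638, 2855 and 2881 CPM at 0 dpa.

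Metabolic genes did not move as a block. Nuclear encoded genes of oxidative phosphorylation held 36 higher and 8 lower of 78 (median 0.24), and mitochondrial ribosomal proteins 25 higher and 2 lower of 64 (median 0.25). Without 4 dpa replicate 1 the 36 became 27 and the 25 became 16. Most of these changes were small: 3 genes of the first list and 0 of the second were called at least 2-fold higher. The cytochrome c gene cycsb had the largest rise of the first list, 1.22 ± 0.117, and the ATP synthase gene ATP5F1B rose by 0.64 ± 0.0964. Of the 13 mitochondrially encoded genes 6 rose and 2 fell, where the 2 became none under quantile normalization, 1 with scaling to total reads, 3 without 0 dpa replicate 1 and 1 without any 1 of 4 dpa replicates 1 and 3 and 0 dpa replicates 2 and 3. MT-CO1, a core subunit of complex IV, had 7310, 7766 and 7571 CPM at 4 dpa and 15346, 15427 and 15173 CPM at 0 dpa, while MT-ATP6, of the ATP synthase, had 1812, 1872 and 1858 CPM at 4 dpa and 1148, 1270 and 1280 CPM at 0 dpa.

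Glycolysis held 8 higher and 12 lower of 25 (median -0.26), but 10 higher and 7 lower with scaling to total reads (median -0.02). In the citric acid cycle list 10 rose and 7 fell of 25, and the median of -0.02 was 0.26 with scaling to total reads. IDH2, a mitochondrial source of NADPH, had 217, 205 and 196 CPM at 4 dpa and 51.0, 56.001 and 55.6 CPM at 0 dpa. PDK2, a kinase that shuts off pyruvate dehydrogenase, had 26.4, 31.2 and 21.0 CPM at 4 dpa and 122, 235 and 158 CPM at 0 dpa. Fatty acid oxidation held 11 higher and 2 lower of 24 (median 0.27). In serine, folate and nucleotide synthesis 13 rose and 7 fell of 32. IMPDH1, which commits to guanine nucleotides, had 125, 112 and 122 CPM at 4 dpa and 28.3, 30.3 and 32.3 CPM at 0 dpa. MAT2A, which makes the methyl donor S-adenosylmethionine, had 21.9, 27.2 and 39.5 CPM at 4 dpa and 186, 364 and 448 CPM at 0 dpa. Again 0 dpa replicate 1 was the lowest of its group in MAT2A, and the groups did not overlap.

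Cholesterol synthesis stood at the bottom of the metabolic lists. Of 19 genes 17 were called lower at 4 dpa, 14 of them at least 2-fold, and none higher (median -1.45). Among the enzymes, SQLE oxidizes squalene and HSD17B7 acts late on the sterol ring. HSD17B7 had 6.203, 4.24 and 8.78 CPM at 4 dpa and 232, 323 and 456 CPM at 0 dpa. SQLE (ENSDARG00000079946) had 1.44, 2.58 and 1.99 CPM at 4 dpa and 17.1, 23.1 and 37.8 CPM at 0 dpa. In both genes the groups lay apart by several-fold and 0 dpa replicate 1 was the lowest fin library. The 4 dpa libraries spent 0.0334%, 0.0319% and 0.0365% of their reads on the list, against 0.0782%, 0.103% and 0.144% in the 0 dpa libraries. The 2 genes that did not pass, named after their values were seen, were IDI1 and PMVK, with log2 fold changes of 0.13 and 0.21. Leaving out any library kept 16 or 17 of the 19 called lower, and scaling to total reads left 15 lower and 1 higher.

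**Figure D3:**
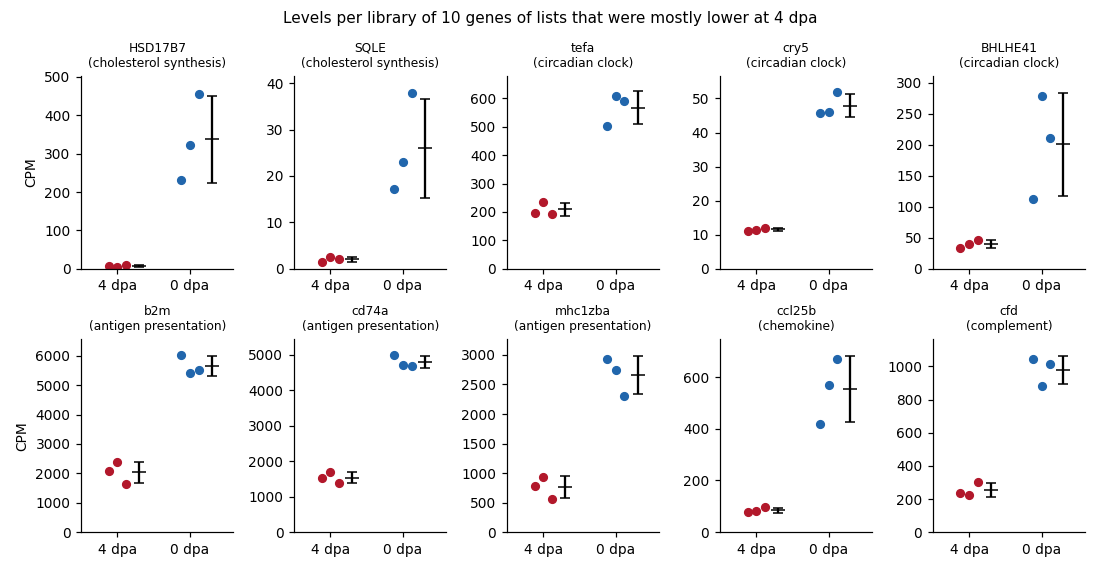
CPM per library (vertical axes, each starting at 0) of 10 genes of lists that were mostly lower at 4 dpa, with 4 dpa in red, 0 dpa in blue, and the mean with its SD as a cross and bar (n = 3 each). No gene of the 10 had overlapping groups, as was so for 68.1% of all genes. The 10 were picked by size of change, by reads or, for cd74a and mhc1zba, after their values were seen. In SQLE, HSD17B7, BHLHE41 and ccl25b the points at 0 dpa are widely spread.

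Other metabolic lists were divided in direction. Amino acid breakdown held 14 lower and 9 higher of 34 (median -0.23), and its median was 0.02 with scaling to total reads. TAT, which degrades tyrosine, had 6.50, 7.18 and 8.32 CPM at 4 dpa and 69.2, 99.1 and 111 CPM at 0 dpa. CTH, of cysteine synthesis, went the other way (2.11 ± 0.131). Cytochrome P450 genes held 16 lower and 10 higher of 36, and their median of -0.13 turned to 0.05 with scaling to total reads. The sterol hydroxylase cyp27a3 had 16.1, 20.7 and 29.7 CPM at 4 dpa and 126, 187 and 201 CPM at 0 dpa. CYP26A1, which degrades retinoic acid, had 202, 245 and 244 CPM at 4 dpa and 53.3, 119 and 74.4 CPM at 0 dpa. Lipid carriers held 18 lower and 11 higher of 45, with a median of -0.13 that was 0.13 with scaling to total reads. In that list the apolipoprotein apoc1 had 23.3, 28.9 and 23.9 CPM at 4 dpa and 2.01, 2.97 and 2.53 CPM at 0 dpa. Solute carriers, the largest list, were balanced, with 70 higher and 65 lower of 223 (median 0.00), and lysosome genes were mostly not called (31 of 54), with ctsla, a cathepsin, the steepest rise at 2.54 ± 0.0940.

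Genes of the circadian clock formed a list with falls in its core and its output. Of 38 genes 28 were called lower at 4 dpa and none higher, with a median of -0.83. The output transcription factor tefa had 197, 236 and 194 CPM at 4 dpa and 502, 608 and 592 CPM at 0 dpa, and cry5, a photolyase relative of the clock cryptochromes, had 11.2, 11.5 and 12.1 CPM at 4 dpa and 45.8, 45.9 and 51.9 CPM at 0 dpa. BHLHE41, a repressor within the clock, had 33.5, 39.2 and 45.8 CPM at 4 dpa and 112, 278 and 211 CPM at 0 dpa. The groups did not overlap in any of the 3. NR1D1, a nuclear receptor that represses clock activators, had 22.6, 25.9 and 22.8 CPM at 4 dpa and 69.3, 103 and 91.0 CPM at 0 dpa. Both copies named CLOCK, the activator itself, did not pass the test (0.08 and -0.18), a choice made after their values were seen. With the hours of collection not given, time of day and regeneration cannot be told apart for this list. Nuclear receptors as a whole held 22 lower and 11 higher of 39 (median -0.43), and the 11 became 7 without 4 dpa replicate 3.

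Immune lists ranged from antigen presentation, where most genes were called lower, to myeloid markers, which were divided. Of 38 antigen presentation genes 30 were called lower and 1 higher (median -1.03), and their share of reads was 0.973% ± 0.132 at 4 dpa and 2.22% ± 0.222 at 0 dpa. The light chain of class I molecules, b2m, had 2085, 2372 and 1646 CPM at 4 dpa and 6028, 5414 and 5523 CPM at 0 dpa, and b2ml, a related chain, had 787, 873 and 677 CPM at 4 dpa and 2796, 2781 and 2737 CPM at 0 dpa. The class II side followed: ciita, the master activator of class II genes, had 13.9, 14.9 and 8.24 CPM at 4 dpa and 85.7, 36.4 and 53.0 CPM at 0 dpa. The groups lay apart in all 3 genes, with a wide spread among the fin libraries only for ciita. Lymphoid markers held 18 lower and 3 higher of 23 (median -1.16). The perforin gene prf1.6, of killer cells, had 9.93, 4.39 and 5.67 CPM at 4 dpa and 84.7, 54.6 and 42.6 CPM at 0 dpa. A member that rose, chosen after its values were seen, was TCF7, a transcription factor that also serves Wnt signalling, with 15.9, 13.3 and 16.3 CPM at 4 dpa and 0.899, 0.882 and 1.32 CPM at 0 dpa.

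Chemokines, interleukins and their receptors held 46 lower and 12 higher of 78 (median -0.60). The epithelial chemokine ccl27b had 37.4, 44.3 and 36.7 CPM at 4 dpa and 300, 314 and 365 CPM at 0 dpa, and ccl25b, a chemokine that draws T cells in other vertebrates, had 77.1, 81.3 and 96.2 CPM at 4 dpa and 418, 570 and 671 CPM at 0 dpa. In contrast, tnfrsf9a, a receptor of the tumour necrosis factor family, had 100.4, 85.3 and 68.8 CPM at 4 dpa and 12.1, 4.45 and 7.46 CPM at 0 dpa. Interferon response genes were more often not called (28 of 55) and held 21 lower and 6 higher (median -0.30). With scaling to total reads the 21 became 13 and the 6 became 10. Complement held 6 lower and 2 higher of 12. Its component c4b had 2.25, 5.42 and 4.06 CPM at 4 dpa and 85.1, 61.8 and 89.9 CPM at 0 dpa, and the protease cfd had 239, 222 and 305 CPM at 4 dpa and 1045, 881 and 1013 CPM at 0 dpa. Myeloid markers were split, 10 higher and 12 lower of 41, and their median of -0.16 turned to 0.11 with scaling to total reads. The leukocyte phosphatase ptprc fell by 1.38 on the log2 scale (SE 0.107), while the macrophage gene cd68 had 224, 199 and 169 CPM at 4 dpa and 463, 159 and 169 CPM at 0 dpa and did not pass. For cd68 the whole spread at 0 dpa came from replicate 1, which also stood high for other macrophage genes.

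Markers of the other cell types placed the change in the tissue. The fin held its defining tissues at both times, since skin keratins led the reads and osteoblast, vessel, pigment and Schwann cell markers were read in the libraries. Skeletal muscle markers were at low values, each under 10 CPM at both times but for the myoglobin mb, which had 65.2, 45.4 and 52.8 CPM at 4 dpa and 24.8, 27.1 and 32.3 CPM at 0 dpa. Osteoblast markers held 13 higher and 2 lower of 17 (median 2.03), with PANX3, a channel of maturing bone cells, at 60.4, 55.3 and 72.1 CPM at 4 dpa and 1.80, 1.67 and 2.29 CPM at 0 dpa. The mineralization inhibitor mgp fell, with 7.09, 10.18 and 8.51 CPM at 4 dpa and 25.4, 28.6 and 35.8 CPM at 0 dpa. Osteoclast markers held 7 higher and 2 lower of 10, with the acid phosphatase ACP5 up by 2.31 ± 0.167. Endothelial markers held 12 higher and 3 lower of 20 (median 0.49), led by plvapb, of fenestrated vessels, with 127, 150 and 137 CPM at 4 dpa and 44.6, 69.9 and 51.3 CPM at 0 dpa. Smooth muscle and mural markers held 9 lower and 5 higher of 15, where the 5 became 3 without 4 dpa replicate 3, 0 dpa replicate 1 or 0 dpa replicate 3.

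Schwann cell and myelin markers held 11 lower and 3 higher of 17 (median -1.07). The myelin gene mbpa, chosen after its values were seen, was close to the limit of detection at 4 dpa, where it had 0.443, 0.620 and 0.345 CPM (12, 12 and 9 reads), against 19.2, 22.9 and 21.7 CPM at 0 dpa. The receptor NGFR (ENSDARG00000088708), found on immature Schwann cells and on other cells, rose by 1.08 ± 0.113. Neuron markers held 4 higher and 3 lower of 10, and the one with most reads, tubb5, is the tubulin named above. Of pigment cells, xanthophore markers held 7 lower and none higher of 11 (median -0.68), iridophore markers 6 lower and 2 higher of 12, and melanophore markers 5 lower and 2 higher of 11, with none higher without 4 dpa replicate 3 or 0 dpa replicate 2. SPR (ENSDARG00000004406), of pteridine synthesis, had 18.9, 21.1 and 19.2 CPM at 4 dpa and 73.3, 54.4 and 67.1 CPM at 0 dpa. Lateral line and hair cell markers were divided, 5 higher and 7 lower of 14 (4 lower without 4 dpa replicate 2, 0 dpa replicate 2 or 0 dpa replicate 3), with pvalb8, a calcium buffer, at 2.88, 3.46 and 3.26 CPM at 4 dpa and 26.8, 35.5 and 38.2 CPM at 0 dpa. Of 7 red blood cell markers 4 were called higher, but 1 to 2 when 4 dpa replicate 1, 4 dpa replicate 3, 0 dpa replicate 1 or 0 dpa replicate 2 was left out.

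Signalling genes moved both ways, in proportions that differed between pathways. Of 40 Wnt ligands, receptors and inhibitors 24 rose and 7 fell (median 0.64). LEF1, the transcription factor at the end of the Wnt pathway and a target of it, had 64.9, 47.5 and 63.6 CPM at 4 dpa and 3.17, 3.62 and 3.56 CPM at 0 dpa. DKK3, of the Dickkopf family, had 361, 342 and 349 CPM at 4 dpa and 14.01, 16.1 and 17.5 CPM at 0 dpa. WIF1, which binds Wnt ligands outside the cell, fell instead, with 21.2, 24.2 and 22.5 CPM at 4 dpa and 107, 117 and 137 CPM at 0 dpa. Of 66 Bmp, Tgf-beta and hedgehog genes 41 rose and 7 fell (median 0.60). Both genes named FSTL1, a secreted follistatin relative, rose, by 3.12 ± 0.102 (ENSDARG00000039576) and 2.79 ± 0.120 (ENSDARG00000015559), and the activin receptor ACVR2A fell by 1.32 on the log2 scale (SE 0.0860). The Fgf list held 14 higher and 10 lower of 30, of which the 10 became 5 without 4 dpa replicate 1 or 0 dpa replicate 2 and 6 without 4 dpa replicate 2. ETV4, a transcription factor induced by Fgf signals, had 91.6, 72.4 and 89.1 CPM at 4 dpa and 6.13, 6.26 and 6.04 CPM at 0 dpa. The Fgf-binding protein fgfbp2a went the other way, with 48.3, 70.3 and 52.7 CPM at 4 dpa and 567, 715 and 734 CPM at 0 dpa. Notch genes held 9 lower (5 without 4 dpa replicate 1), 4 higher and 11 not called of 24, and their median of -0.12 was 0.10 with scaling to total reads. The ligand dlc had 4.95, 5.32 and 4.33 CPM at 4 dpa and 33.7, 36.4 and 34.6 CPM at 0 dpa. Axon guidance genes held 38 higher and 18 lower of 72 (median 0.61), led by the receptor ROBO3, with 29.1, 28.7 and 37.6 CPM at 4 dpa and 1.69, 1.90 and 2.19 CPM at 0 dpa.

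Transcription factor families differed in direction. Homeobox genes outside the Hox clusters held 25 higher and 9 lower of 37 (median 0.91), with the blastema factor msx3 at 133, 130 and 147 CPM at 4 dpa and 20.2, 10.8 and 13.5 CPM at 0 dpa. Of the 7 Hox genes listed 6 rose and 1, hoxc3a, fell by 1.39 on the log2 scale (SE 0.0899). The naming rule of that list asked for a final copy letter, so Hox genes named without one may be missing. Sox genes held 7 higher and 10 lower of 18 (median -0.60), from SOX11 (ENSDARG00000077811), a factor of progenitor cells (2.39 ± 0.143), to SOX3, which fell by 1.23 on the log2 scale (SE 0.240). AP-1 and immediate-early factors held 16 lower and 9 higher of 42, and their median of -0.23 was 0.00 with scaling to total reads. Their share of reads was 0.354%, 0.310% and 0.342% at 4 dpa and 0.294%, 0.549% and 0.559% at 0 dpa. Replicate 1 at 0 dpa thus lay below every 4 dpa library. JUN, a part of AP-1, had 141, 162 and 156 CPM at 4 dpa and 297, 574 and 486 CPM at 0 dpa, and MAF had 41.2, 37.4 and 39.1 CPM at 4 dpa and 8.35, 5.94 and 5.07 CPM at 0 dpa. Chromatin regulators held 57 higher and 31 lower of 125 (median 0.22), with the histone demethylase kdm6bb up by 1.87 ± 0.0812 and the remodeller smarca1 down by 2.75 on the log2 scale (SE 0.107). Zinc finger genes named znf were mostly not called, 78 of 122, with 20 higher and 24 lower and a median of -0.06 that was 0.17 with scaling to total reads.

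Receptors and channels had more falls than rises in some classes. G protein-coupled receptors named gpr or adgr held 29 lower and 10 higher of 52 (median -0.41), with ADGRF1 at 67.3, 74.0 and 57.3 CPM at 4 dpa and 268, 176 and 178 CPM at 0 dpa. Among them GPR161 (ENSDARG00000058903), which restrains hedgehog signalling, rose by 1.31 ± 0.0976. Potassium channels (9 higher and 7 lower of 25) and other ion channels (16 higher and 20 lower of 50) were balanced, and the medians of -0.21 and -0.14 turned to 0.05 and 0.11 with scaling to total reads. The mechanosensitive channel PIEZO2 rose by 1.76 ± 0.138. S100 proteins and annexins held 7 higher and 8 lower of 22, and their median of -0.11 turned to 0.12 with scaling to total reads.

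Families were also grouped by the letters that open their gene names, which used no knowledge of function. Of the 161 families with at least 10 genes, 84 had a median above 0 and 77 below. The 8 highest medians were those of the collagens (col, 2.13), the matrix metalloproteinases (mmp, 1.43), the related adamts proteases (1.26), the alpha tubulins (tuba, 1.09), the Smad transducers of Bmp and Tgf-beta signals (smad, 1.09), the kinesins (kif, 1.02), the proline isomerases that help proteins fold (fkbp, 0.96) and the integrin alpha chains (itga, 0.92). In smad 10 of 12 genes rose and 1 fell, over a range from -0.48 to 1.41, whereas in fkbp 10 of 14 rose and 4 fell, over a range from -1.18 to 3.89. The 8 lowest were the CC chemokines (ccl, -1.36), the major histocompatibility genes (mhc, -1.21), adhesion receptors of leukocytes (adgre, -0.95), sulfotransferases (sult, -0.91), interferon-induced genes (ifi, -0.89), keratins (krt, -0.77), ftr genes (-0.74), a fish family of trim-type ubiquitin ligase relatives, and claudins (cldn, -0.66). Of 56 ftr genes 45 were lower and none higher, and in sult, where 8 of 11 were lower and 1 higher, the share of reads was 0.0801% ± 0.0107 at 4 dpa and 0.328% ± 0.0375 at 0 dpa. The ftr, mhc and ifi genes occur in near-identical copies between which reads may have been split. The medians of all 16 families kept their sign under every scaling, pseudocount, filter and left-out library tried. These families were picked for the most extreme medians in these same data, so a kept sign adds little information. Under quantile normalization the krt family of 18 genes had a median of -0.47, whereas the keratin list of 17 genes turned to 0.10. The family and the list do not hold the same genes.

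**Figure D4:**
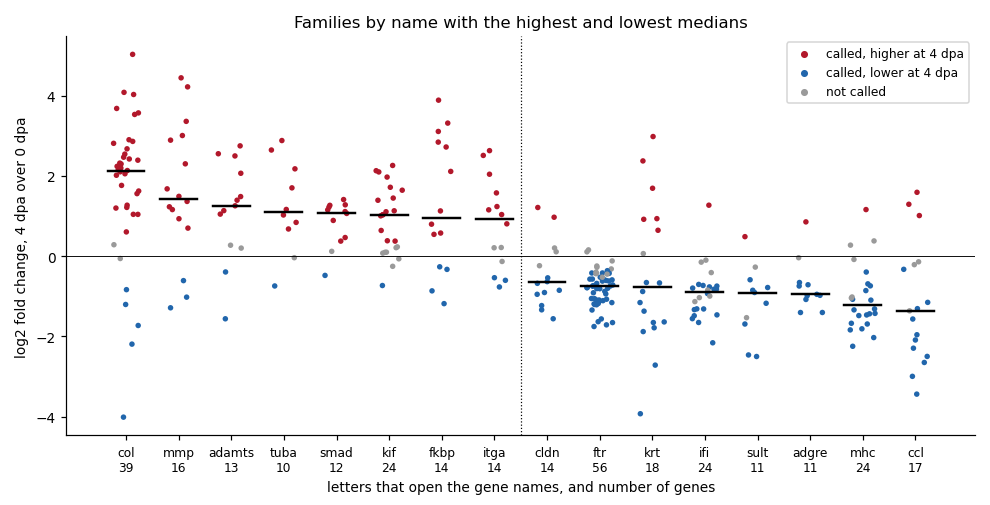
Log2 fold change (vertical axis, 4 dpa over 0 dpa) of each gene in the 8 families by name with the highest medians, left of the dotted line, and the 8 with the lowest, right of it, with the number of genes under each name. Red points were called higher at 4 dpa, blue lower and grey not called, and bars mark medians, from 2.13 in col to -1.36 in ccl.

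Zebrafish carry many genes as pairs that stem from the genome duplication of teleost fishes, often named with a final a and b. Pairs were taken here by such names alone, and their origin was not checked. Of 255 such pairs with at least 1 CPM in both copies, the changes of the copies differed in 148 (58.0%), by a limma test of the difference between copies, and in 78 of these by at least 2-fold. The median absolute difference between the log2 fold changes of copies was 0.61. In 42 pairs both copies were called higher, in 58 both lower, in 89 only 1 copy was called and in 30 neither. In 36 pairs the copies were called in opposite directions. All 36 passed the test of the difference, but opposite calls make that result nearly certain, so it adds no information. The same shares for pairs of unrelated genes are not given here. Whether duplicate copies differ more or less often than other genes was therefore not tested.

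Among those 36, the 6 largest differences fell on matrix, adhesion and signalling genes. The proteoglycan gene cspg4ba had 19.6, 13.4 and 18.2 CPM at 4 dpa and 1.64, 1.81 and 1.41 CPM at 0 dpa, and its copy cspg4bb had 1.22, 2.12 and 1.42 CPM at 4 dpa and 9.15, 11.6 and 6.63 CPM at 0 dpa. The copies thus exchanged places, with a difference of 4.73 ± 0.265 on the log2 scale (adjusted p = 2.74e-06 by limma). The enamel-type protease mmp20b had 8.53, 12.2 and 10.5 CPM at 4 dpa and 0.476, 0.742 and 0.439 CPM at 0 dpa, while mmp20a had 3.21, 3.62 and 1.88 CPM at 4 dpa and 6.82, 10.02 and 8.82 CPM at 0 dpa. The collagen propeptide enhancer pcolcea had 175, 97.7 and 127 CPM at 4 dpa and 33.9, 42.7 and 35.1 CPM at 0 dpa, while pcolceb had 23.96, 23.4 and 24.4 CPM at 4 dpa and 118, 109 and 117 CPM at 0 dpa. Neither copy of either gene had overlapping groups. The kinase anchor akap12b rose (1.34 ± 0.124) and akap12a fell by 2.27 on the log2 scale (SE 0.134). For the hemidesmosome collagens, col17a1b had 1362, 1169 and 1618 CPM at 4 dpa and 592, 813 and 636 CPM at 0 dpa, against the fall of col17a1a given above. The Notch ligand jag1a had 36.1, 33.2 and 55.7 CPM at 4 dpa and 7.82, 9.74 and 8.97 CPM at 0 dpa, and jag1b had 50.4, 44.1 and 65.0 CPM at 4 dpa and 89.3, 91.0 and 117 CPM at 0 dpa.

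**Figure D5:**
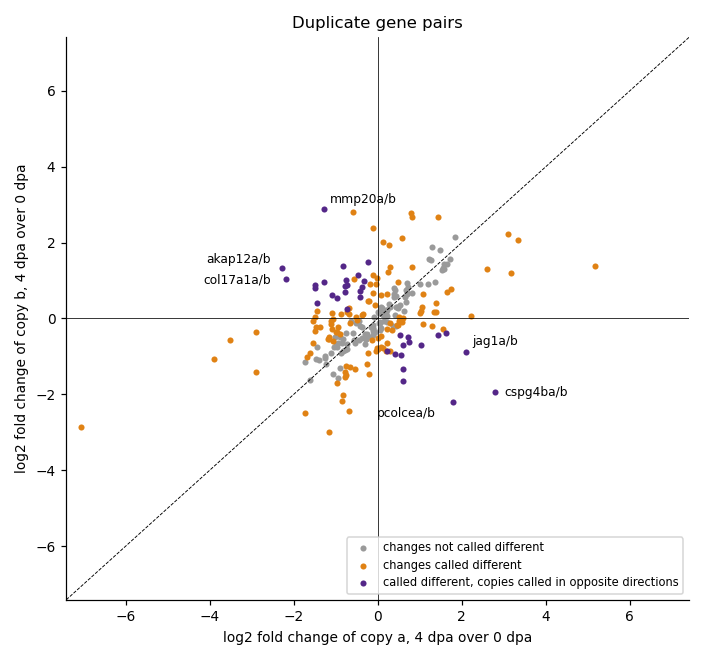
Log2 fold change, 4 dpa over 0 dpa, of copy a (horizontal axis) and copy b (vertical axis) of 255 duplicate pairs, where the dashed line marks equal change. Grey pairs were not called different, orange pairs were, and the 36 purple pairs were called different with copies called in opposite directions, the 6 widest apart carrying their names.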

How the data were processed

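The submitters' processing notes name Trimmomatic, RSEM, edgeR and the Zv9 build, with no versions and no role for each, and how the authors mapped and counted the zebrafish mRNA reads is not given in the sources used here. The mRNA table was deposited as log2(CPM + 1) values per gene and library, where CPM is the count of a gene scaled by the authors' adjusted library size. Reads were recovered from these values, and all came out whole within 0.1 of a read. Libraries held 17928712 to 25223147 reads, and replicates differed by more than sampling noise. No per-sample column of the table was left unused.

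For the comparison, each library was shifted by a trimmed mean (30% of ratios and 5% of levels removed at each end), and limma 3.58.1 in R 4.3.3 was fitted to the 3 libraries at 4 dpa and the 3 at 0 dpa, with a trend of variance on level and Benjamini-Hochberg adjustment over 16951 genes. Python 3.11.15 handled the tables (pandas 2.3.3, SciPy 1.17.1, NumPy 2.4.6) and Matplotlib 3.10.9 drew the plots. The fit was also run on simulated counts in which few genes changed, in equal numbers up and down. Far more genes were called in these data, so that run does not show how the fit performs on them. Since p-values rest on pools of fins, they measure the spread between pools.

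Genes were placed in 81 lists and in families of at least 10 genes by their deposited names, of which 670 are shared by several genes. The lists and members were chosen with earlier results of these data known, so counts describe them and no list was tested. A few genes that the naming rule gave are not reported here. Genes named for a list were taken from the 2 called genes with the largest change in the majority direction, 1 called the other way with a mean level of at least 3, and the gene with most reads, with the 10 genes of most reads at each time, the 8 highest and 8 lowest families and the 6 widest duplicate pairs among those called in opposite directions. The alternatives were other scalings, pseudocounts, a filter on mean CPM, a limma-voom fit, a replicate block and leaving out each library.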

Additional observations from a re-analysis of the deposited data

How the results depend on the processing

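Genes called ranged from 9100 to 10169 when a library was left out, and were 10395 under quantile normalization, 11113 with scaling to total reads, 10508 and 10509 with pseudocounts of 0.25 and 4, 10068 with a mean CPM of at least 1, and 10520 by limma-voom. A fold of at least 2 as well left 3683. Of the 16 families named, 5 had at least 20 genes (col, kif, ftr, ifi and mhc). All 5 remained among the named ones when families needed at least 20 genes, and the rest were excluded by that rule. Removing smaller families cannot push a family away from either end of the ranking, so this outcome was certain and adds no information. Whether libraries with the same replicate number were paired is not given in the sources used here. Deviations of same-numbered libraries correlated at 0.16, -0.01 and 0.15, and those of differently numbered libraries at -0.24 to 0.17. With so few libraries these values cannot settle the question. A fit with the replicate number as a block called 10486 genes and 142 duplicate pairs, against 148 pairs without it. Duplicate pairs called different ranged from 130 to 146 when a library was left out.

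Medians that turned sign with scaling to total reads were those of the citric acid cycle (0.26), desmosome and cornified layer genes (0.11, and 0.08 under quantile normalization), lipid carriers (0.13), amino acid breakdown (0.016), cytochrome P450 (0.049), myeloid markers (0.11), Notch genes (0.10), AP-1 and immediate-early factors (0.0035), znf genes (0.17), potassium channels (0.046), other ion channels (0.11) and S100 proteins and annexins (0.12). These follow the shift of 0.24 in the median of all genes. Keratins turned to 0.10 under quantile normalization, and integrins to -0.064 with a mean CPM of at least 1. With a library left out, the medians ranged from -0.094 to 0.15 for integrins, -0.28 to 0.076 for cytochrome P450 and -0.23 to 0.016 for myeloid markers. Single genes that turned were krt5 (0.18) and tpm3 (0.22) under quantile normalization and MDH1 (0.071) and CCT6B (0.060) with scaling to total reads. The cause was not tested. Of 278 named genes that were called, 246 were called the same way under every alternative and 31 were lost under at least 1. No motif scan of promoters was run, since no promoter sequences were used here.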
